A study of Mus musculus with 29 samples.

Results

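Translation initiation and elongation factors are the proteins that place ribosomes on mRNAs and move them along the message. Their genes were taken from the count table by symbol alone: every name that begins with Eif1 to Eif6, Eef1 or Eef2, apart from Eif2s1, Eif2s3y, the kinases Eif2ak1 to Eif2ak4 and the eIF4E-binding proteins Eif4ebp1 to Eif4ebp3. The rule found 59 of 22327 symbols. Of these, 54 passed the filter on low counts and were among the 16074 genes tested. The other 5 (Eif1-ps3, Eif2c5, Eif3s6-ps1, Eif3s6-ps4 and Eif5al3-ps) averaged at most 3.71 CPM (counts scaled to library size) per kilobase of exon in any group and had no test. Names do not guarantee roles: 11 of the 59 were put in a class of other matches, namely the lysine methyltransferases Eef1akmt1 and Eef2kmt, Eif1ad, Eif2c5 and 7 pseudogenes. Eef2k, Eef1e1 and Eif4a3 are not factor subunits of initiation or elongation either and are described with the genes they are named for.

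Initiation begins when eIF4E binds the cap of an mRNA, the scaffold eIF4G joins it and the helicase eIF4A opens the leader. The small ribosomal subunit arrives with eIF3, eIF1, eIF1A and eIF5 and with the ternary complex, in which eIF2 holds the initiator tRNA and GTP. eIF2B recharges eIF2 with GTP, and this is the step that phosphorylation of eIF2α blocks in the integrated stress response. In elongation eEF1A brings each tRNA, the eEF1B subunits recharge eEF1A, and eEF2, which the kinase eEF2K inactivates, moves the ribosome. Many of these mRNAs begin with a run of pyrimidines, the terminal oligopyrimidine (TOP) tract, through which mTOR controls their translation.

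The study asked what the integrated stress response of microglia does to the RNAs that their ribosomes carry. Each of its 29 libraries holds polyadenylated RNA recovered on tagged ribosomes (translating ribosome affinity purification, TRAP) from the cortex of 1 mouse aged 6 months. All mice carried Cx3cr1CreErt2/+, which gives a tamoxifen-dependent Cre in Cx3cr1-expressing cells, and all received 6 doses of 100 mg/kg tamoxifen. The tag, eGFP-L10a behind a stop cassette, sits at the Eef1a1 locus (Eef1a1LSL.eGFPL10a/+), so 1 member of the set is also the locus of the tag in every group.

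The 5xFAD Eif2A (n = 3) and Eif2A (n = 4) mice were Eif2s1A/A;Tg(Eif2s1) and were given tamoxifen only. Eif2s1A is an Eif2s1 allele whose eIF2α escapes phosphorylation, and Tg(Eif2s1) is a separate Eif2s1 transgene. The sample labels of these mice include the tag, which the design text of the series does not list for them. The iPKR groups carried Eef1a1LSL.NS3.eGFPL10a.iPKR/+, in which the same locus also holds NS3 and PKR, a kinase of eIF2α, in a form that a drug can switch on. The 5xFAD iPKR (n = 4) and iPKR ASV (n = 5) mice received VEGF (1 µg/kg) and ASV (5 mg/kg; asunaprevir, which blocks the NS3 protease) over 4 weeks, and the iPKR vehicle mice (n = 4) received VEGF and the solvent. The 5xFAD TRAP mice (n = 4) carried the tag with the 5xFAD transgenes, which produce amyloid plaques, and received VEGF and ASV. The TRAP mice (n = 5) carried the tag alone and received tamoxifen only. The treatments therefore differ in several comparisons between genotypes, and there a genotype and its treatment cannot be told apart.

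Sequencing depth varied between libraries, the shallowest holding 1.662 M counts, the middle one 6.049 M and the deepest 31.998 M. Both Eif2A groups came from batch 1, and the other groups from batches 1 and 2. By label every group held males and females, with mostly females in 5xFAD iPKR, as many of each in Eif2A and mostly males elsewhere. The iPKR libraries stood apart in their cell type markers. The 16 microglial markers in the table made up a mean of 1.07% of counts in 5xFAD iPKR libraries (0.180% to 1.78%), 0.417% in iPKR ASV libraries (0.0843% to 0.885%) and 0.332% in iPKR vehicle libraries (0.220% to 0.448%). They made up 4.63% in 5xFAD TRAP libraries (3.95% to 5.25%) and 4.11% in TRAP libraries (3.43% to 4.98%). The 11 neuronal markers made up 2.03% (0.516% to 3.76%), 1.33% (0.641% to 2.49%) and 0.801% (0.766% to 0.851%) in the 5xFAD iPKR, iPKR ASV and iPKR vehicle libraries, against 0.224% (0.103% to 0.431%) in 5xFAD TRAP and 0.121% (0.109% to 0.136%) in TRAP libraries. No marker of either list was at 0 in every library of a group, and Cx3cr1 alone was at 0 in some library, of the iPKR vehicle group. The 3 libraries richest in neuronal markers were 5xFAD iPKR replicates 2 and 1 and iPKR ASV replicate 3, all of batch 1. In such pulldowns fewer cells of a type, less RNA per cell and more RNA carried along from untagged cells cannot be told apart. This holds for every level below.

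**Figure D1:**
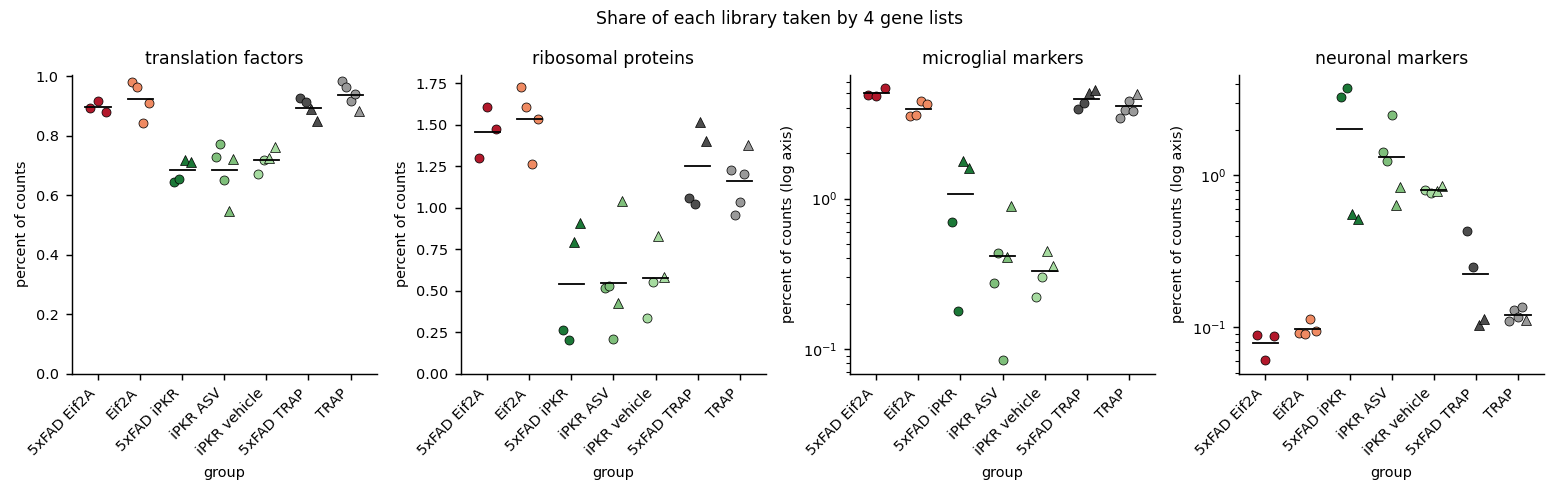
Share of each library's counts (percent) taken by the translation factors, the ribosomal proteins, the microglial markers and the neuronal markers, with 1 point per library (circles batch 1, triangles batch 2) and a line at each group's mean; the marker panels have a log axis. The translation factors averaged 0.683% to 0.720% in the 3 iPKR groups and 0.894% to 0.938% in the other 4, while microglial markers were lower and neuronal markers higher in the iPKR groups.

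The set as a whole took a mean of 0.897% of counts in 5xFAD Eif2A, 0.925% in Eif2A, 0.683% in 5xFAD iPKR, 0.684% in iPKR ASV, 0.720% in iPKR vehicle, 0.894% in 5xFAD TRAP and 0.938% in TRAP libraries. Per kilobase of exon, the most abundant member in the TRAP group was Eif5a, whose product helps ribosomes through difficult stretches, at 374.5 ± 37.2 CPM per kilobase (SD, n = 5). Eif1, which guards the choice of start codon, followed at 326 ± 29.2, then its paralogue Eif1b at 229.7 ± 19.5, the cap-independent scaffold Eif4g2 at 217 ± 28.3 and Eef1a1 at 213 ± 16.8. The ranges of the last 3 overlapped, and so did those of Eif5a and Eif1. In iPKR vehicle libraries Eif1 (209 ± 63.7 CPM per kilobase) and Eif5a (192 ± 25.5) again led, and Eef1a1 stood at 66.0 ± 9.92 (SD, n = 4). The eIF2B subunit Eif2b3 and the eIF2γ gene Eif2s3x were near the bottom of the TRAP group, at 4.38 ± 0.530 and 4.39 ± 0.925 CPM per kilobase.

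Bases near the annotated start of 4 members are shown because the TOP tract is the sequence feature most tied to this set. RefSeq gives a promoter for 40 of the tested members, and 20 of these (50%) hold a C followed by at least 6 pyrimidines on the sense strand within 40 bases of the annotated start, against 34.0% of 27025 promoters. Each line below gives 30 bases of the sense strand in GRCm38.p6 (mm10), with the pyrimidine run in capitals.
Eef1a1 (chr9:78481708-78481737, minus strand): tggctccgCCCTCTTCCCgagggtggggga
Eef1a2 (chr2:181156977-181157006, minus strand): cactggttCTCTCCCTCgctccggtgcatc
Eif3f (chr7:108934403-108934432, plus strand): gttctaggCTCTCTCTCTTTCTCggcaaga
Eif2s3x (chrX:94212631-94212660, minus strand): agcattttCCTTTTCTCTCCgagcaagatg
The runs of Eef1a1, Eif3f and Eif2s3x began at most 5 bases before the annotated start, and that of Eef1a2 at base 18 of the transcript. None of the 4 began exactly at the annotated start, so none was shown to be a TOP tract. The first bases of the Eef1a1 run also belong to the GC box marked in its promoter below. The 40 were limited to tested genes and the 27025 promoters were not, so the shares compare unlike sets. A match to these letters describes the window and is no evidence of regulation.

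All calls in the set lay between the groups with and without the iPKR construct. Levels below are CPM scaled with TMM factors, differences are log2 fold changes with their standard error (SE), and a call is an adjusted p of at most 0.05 from edgeR's quasi-likelihood test, Benjamini-Hochberg adjusted over the whole table. In iPKR vehicle against TRAP libraries, 32 members fell and 4 rose among the 54 tested. Of all genes tested, 54.1% were called in that comparison, 25.4% as lower and 28.6% as higher, so the members' count of higher calls was small and their count of lower calls large beside the background. The members' median log2 difference was -0.69, against 0.17 over all genes. In 5xFAD iPKR against 5xFAD TRAP libraries, which share no library with the first pair, 29 members fell and 2 rose. There 47.9% of all genes were called, 23% as lower and 25% as higher, and the medians were -0.63 for the members and 0.20 for all genes.

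Both comparisons called 23 members as lower and 2 as higher, Eef1a2 and Eif4a2. The 23 were 71.9% of the members that fell in iPKR vehicle and 79.3% of those that fell in 5xFAD iPKR libraries. Over all genes the corresponding shares were 76.6% and 84.9%, so the overlap among the members was close to that among genes at large. The groups did not overlap, with every iPKR vehicle library below every TRAP library, for 32 members (59.3%; 23.8% of all genes), and with every 5xFAD iPKR library below every 5xFAD TRAP library for 28 (51.9%; 22.1% of all genes). Every 5xFAD iPKR library was above every 5xFAD TRAP library for 1 member, Eif4a2 (1.85%; 19.9% of all genes), and every iPKR vehicle library above every TRAP library for 3 (5.56%; 24.8% of all genes). All 16 microglial markers fell and all 11 neuronal markers rose in both comparisons, with median log2 differences of -4.37 and 2.68 in iPKR vehicle and -2.84 and 2.44 in 5xFAD iPKR libraries. Markers of other cells moved as well. Astrocyte markers took 0.301% of counts in 5xFAD iPKR and 0.162% in iPKR vehicle libraries, against 0.0498% in 5xFAD TRAP and 0.0605% in TRAP libraries, and oligodendrocyte markers 0.287% and 0.290%, against 0.0636% and 0.0690%. Of 9 astrocyte markers tested 8 rose in each comparison and 1 fell in iPKR vehicle libraries, and of 10 oligodendrocyte markers 10 rose in 5xFAD iPKR and 7 in iPKR vehicle libraries. Of 7 markers of border macrophages, 2 fell in 5xFAD iPKR and 7 in iPKR vehicle libraries. The part of these cell types in the members' differences was not tested. The vehicle group also received VEGF and solvent and the TRAP group did not, and construct and treatment cannot be told apart there. Both 5xFAD groups of the second pair received VEGF and ASV.

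**Figure D2:**
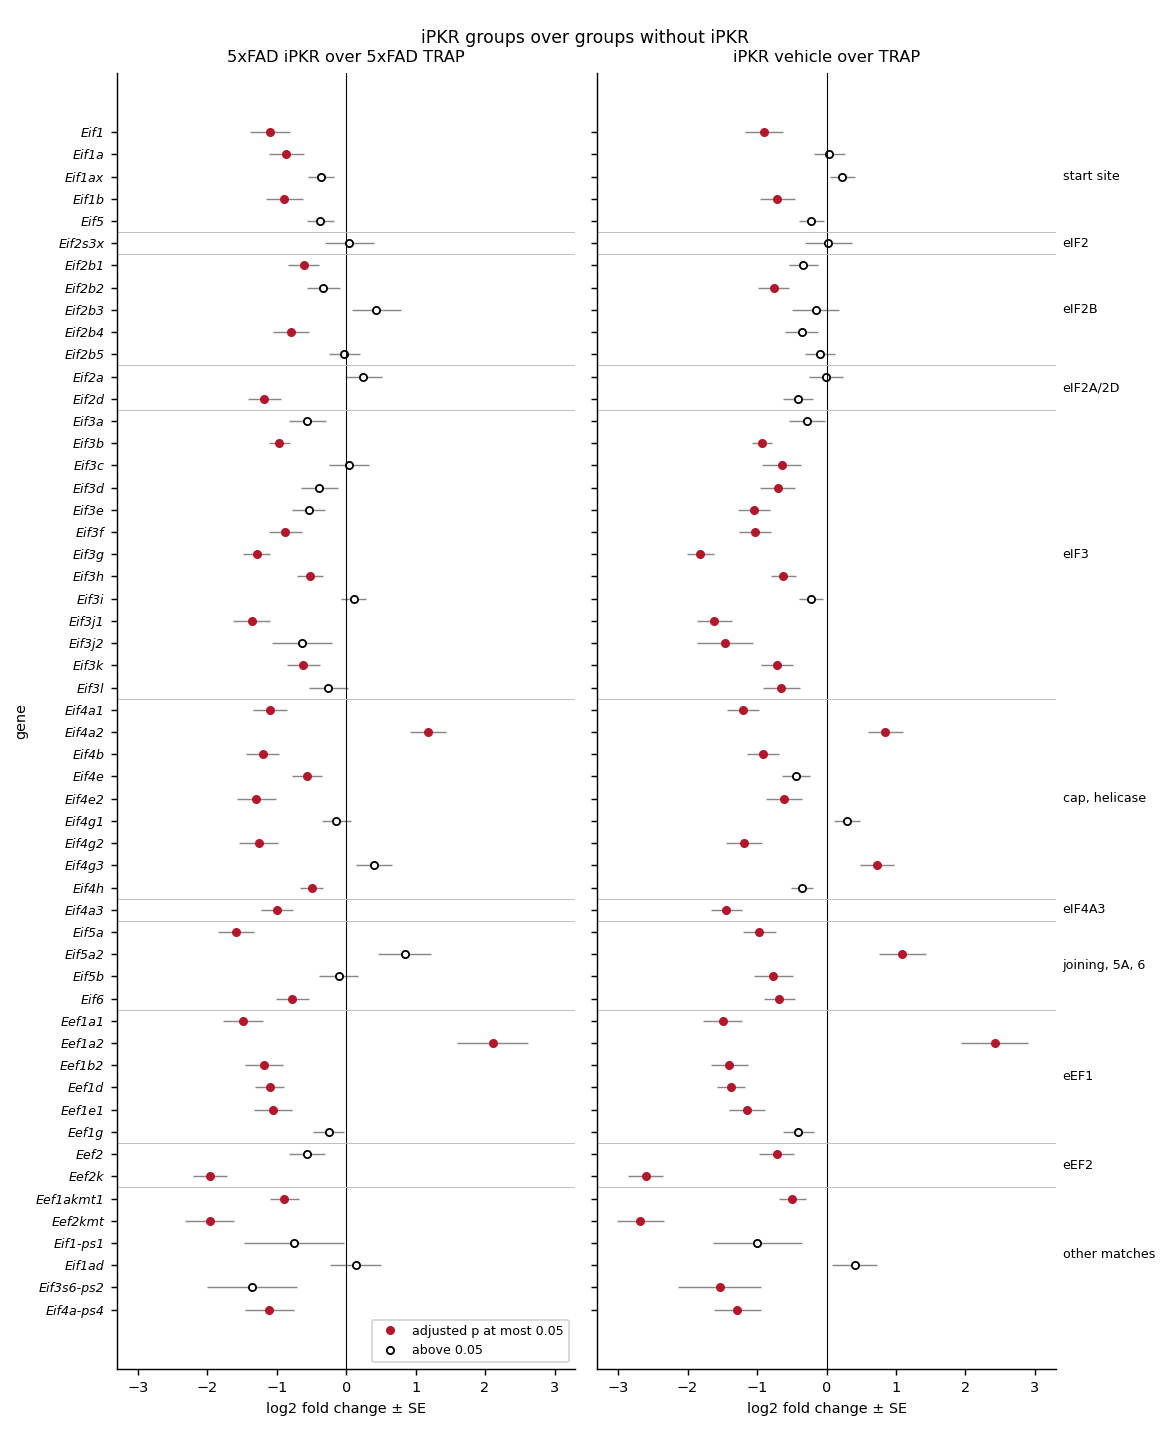
Log2 fold change with SE of each of the 54 tested members in 5xFAD iPKR over 5xFAD TRAP libraries (left) and in iPKR vehicle over TRAP libraries (right), with filled red points for an adjusted p of at most 0.05. Eef2k and Eef2kmt lie lowest on both sides and Eef1a2 highest, at 2.11 in 5xFAD iPKR and 2.42 in iPKR vehicle.

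Among the elongation factors, Eef1a1 and its paralogue Eef1a2 differed in opposite directions. Eef1a1 (chr9:78478449-78489151, minus strand), the form of eEF1A used by most cells, measured 265, 368, 247 and 229 CPM in the 5xFAD iPKR libraries and 668, 804, 678 and 612 CPM in the 5xFAD TRAP libraries. It measured 147, 149, 199.9 and 163 CPM in the iPKR vehicle libraries, against 581, 554, 507, 473 and 541 CPM in the TRAP libraries. The groups lay apart in both pairs. The log2 difference was -1.48 ± 0.29 (SE; edgeR adjusted p = 0.000143) in 5xFAD iPKR and -1.49 ± 0.28 (adjusted p = 6.73e-05) in iPKR vehicle libraries. Since the iPKR groups carry another cassette at this locus than the TRAP groups, the cassette and other sources of the Eef1a1 difference cannot be told apart. Reads of Eef1a1 could also be shared with near-identical copies elsewhere in the genome, and how the counting treated them is not given in the sources used here.

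Eef1a2 (chr2:181147653-181157014, minus strand) encodes the form of eEF1A that neurons and muscle use. It measured 297, 228.5, 36.2 and 32.4 CPM in 5xFAD iPKR libraries, against 61.7, 19.7, 11.7 and 10.7 CPM in 5xFAD TRAP libraries. The first pair of 5xFAD iPKR libraries, both of batch 1, was far above the rest, and the groups overlapped. The difference was 2.11 ± 0.51 (edgeR adjusted p = 0.00134), it was 2.30 within batch 1 and 1.55 within batch 2, and without the 3 libraries richest in neuronal markers it was 0.61 and no longer called (adjusted p = 0.307). In the vehicle pair Eef1a2 measured 44.4, 46.4, 56.8 and 51.9 CPM in iPKR vehicle libraries, against 12.3, 10.3, 16.8, 15.7 and 14.2 CPM in TRAP libraries, without overlap. That difference was 2.42 ± 0.48 (edgeR adjusted p = 0.000128). Eef1a2 made up a mean of 29.1% of the summed Eef1a1 and Eef1a2 levels in 5xFAD iPKR (12.4% to 52.8%), 29.9% in iPKR ASV (21.3% to 37.1%) and 23.3% in iPKR vehicle libraries (22.1% to 24.2%), against 3.57% in 5xFAD TRAP and 2.57% in TRAP libraries. Libraries were ordered differently by this share and by the neuronal markers: iPKR ASV replicate 4 had 37.1% with 0.641% of counts in neuronal markers, and 5xFAD iPKR replicate 2 had 38.3% with 3.76%. The share also depends on Eef1a1, which in iPKR ASV replicate 4 took 0.0137% of counts, the least of its group. Eef1a2 itself was highest in the 3 libraries richest in neuronal markers, at 297 and 228.5 CPM in 5xFAD iPKR replicates 1 and 2 and 275 CPM in iPKR ASV replicate 3. The part of neurons in the Eef1a2 differences was not tested.

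The subunits that recharge eEF1A fell with Eef1a1, apart from Eef1g. Eef1b2 averaged 59.7 ± 18.0 CPM in 5xFAD iPKR and 136 ± 19.4 CPM in 5xFAD TRAP libraries (SD, n = 4 each), and 50.1 ± 11.3 CPM in iPKR vehicle (n = 4) and 119 ± 13.2 CPM in TRAP libraries (n = 5). Its log2 differences were -1.19 ± 0.28 and -1.40 ± 0.27, with edgeR adjusted p of 0.000919 and 8.18e-05. Eef1d fell by 1.10 ± 0.21 and by 1.37 ± 0.21 on the log2 scale in 5xFAD iPKR and iPKR vehicle libraries, and Eef1e1, named for eEF1 but part of the tRNA synthetase complex, by 1.05 ± 0.28 and 1.15 ± 0.26. Eef1g, the scaffold subunit, was not called in either, with differences of -0.25 ± 0.23 and -0.41 ± 0.22. The vehicle pair did give a call within batch 1 (-0.93, edgeR adjusted p = 0.00101) and with only the groups compared (-0.67, adjusted p = 0.0215). Eef1d shares 277 bases of exon with Naprt on the same strand and Eef1b2 shares 9 bases with Ndufs1, so a part of their counts could belong to those genes.

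The kinase that switches off elongation had the smallest p of the set. Eef2k (chr7:120842831-120907450, plus strand) measured 30.2, 36.7, 38.2 and 37.2 CPM in 5xFAD iPKR libraries, against 167, 147, 113.5 and 157 CPM in 5xFAD TRAP libraries. It measured 31.8, 26.6, 46.3 and 18.1 CPM in iPKR vehicle libraries, against 178, 170.2, 236.5, 205 and 148.5 CPM in TRAP libraries. No library of an iPKR group reached the lowest TRAP or 5xFAD TRAP library. The log2 differences were -1.96 ± 0.25 and -2.61 ± 0.25, with edgeR adjusted p of 8.32e-07 and 2.68e-09. Its target Eef2 (chr10:81176631-81182498, plus strand) measured 205, 237, 328 and 228 CPM in iPKR vehicle libraries, against 397, 551, 517, 476 and 417 CPM in TRAP libraries. That difference of -0.72 ± 0.25 was called (adjusted p = 0.0176), but not without iPKR vehicle replicate 1 (adjusted p = 0.0930) or replicate 2, and within batch 1 it was -1.14. In 5xFAD iPKR libraries Eef2 measured 462, 559, 211 and 283 CPM, against 509, 566, 495 and 469 CPM in 5xFAD TRAP libraries. The difference of -0.57 ± 0.26 missed the threshold (adjusted p = 0.0696), and without the 3 libraries richest in neuronal markers it was -1.07 and called (adjusted p = 0.000825).

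Eef2kmt (chr16:5244152-5255983, minus strand), the methyltransferase that modifies a lysine of eEF2, measured 10.5, 3.55, 12 and 12.6 CPM in 5xFAD iPKR libraries and 42.7, 41.1, 31.1 and 32.5 CPM in 5xFAD TRAP libraries. It measured 3.91, 6.45, 2.31 and 5.69 CPM in iPKR vehicle libraries and 32.4, 35.7, 41.5, 24.8 and 25.4 CPM in TRAP libraries. These levels rest on few reads, 6 to 232 counts a library in both iPKR groups. The log2 differences were -1.97 ± 0.35 and -2.68 ± 0.34, with edgeR adjusted p of 5.24e-05 and 2.16e-07, and within batch 2 the 5xFAD pair gave -1.59 without a call (adjusted p = 0.0750). Eef2kmt shares 472 bases of exon with Alg1, so some counts could be of that gene.

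Among the cap-binding and helicase genes, the paralogues of eIF4A also moved apart. Eif4a1 (chr11:69666936-69672423, minus strand), the more widely expressed of the eIF4A genes, measured 187.5, 142, 118 and 148 CPM in 5xFAD iPKR libraries, against 291, 311, 293.5 and 235 CPM in 5xFAD TRAP libraries. It measured 51.6, 83.5, 103 and 118.5 CPM in iPKR vehicle libraries, against 226, 242, 171, 190.1 and 269.8 CPM in TRAP libraries. Both pairs lay apart, with log2 differences of -1.10 ± 0.24 (edgeR adjusted p = 0.000552) and -1.20 ± 0.23 (adjusted p = 9.67e-05). The pseudogene Eif4a-ps4 fell with Eif4a1 in both, by 1.11 and 1.29 on the log2 scale, and reads of such near-identical copies cannot be assigned with certainty.

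Eif4a2 (chr16:23107444-23114136, plus strand) measured 474, 594, 209 and 249.6 CPM in 5xFAD iPKR libraries, against 161, 157, 169 and 135 CPM in 5xFAD TRAP libraries. The iPKR vehicle libraries measured 215, 267, 288 and 271.5 CPM, against 186, 157.5, 163, 146 and 168 CPM in TRAP libraries. The iPKR libraries were above all others in both pairs, with differences of 1.18 ± 0.27 (edgeR adjusted p = 0.000648) and 0.85 ± 0.25 (adjusted p = 0.00547). In the 5xFAD pair it was 1.76 within batch 1 and 0.44 within batch 2, where it was not called (adjusted p = 0.316), and 0.68 with a call when the 3 libraries richest in neuronal markers were left out (adjusted p = 0.0342). Within batch 1 the vehicle pair gave 0.48, also without a call (adjusted p = 0.0558). Eif4a2 made up 69.8% of the summed Eif4a1 and Eif4a2 levels in 5xFAD iPKR and 75.1% in iPKR vehicle libraries, against 35.5% in 5xFAD TRAP and 43.0% in TRAP libraries. Eif4a2 shares 194 bases of exon with Rfc4.

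The promoters of both pairs are given because their members moved in opposite directions. Each line gives the 100 bases before the RefSeq start in GRCm38.p6, sense strand, with the GC box GGGCGG, its reverse complement CCGCCC and the CCAAT box in capitals.
Eef1a1 (chr9:78481725-78481824, minus strand): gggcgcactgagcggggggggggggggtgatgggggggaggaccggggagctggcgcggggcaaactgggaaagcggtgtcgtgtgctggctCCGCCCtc
Eef1a2 (chr2:181157016-181157115, minus strand): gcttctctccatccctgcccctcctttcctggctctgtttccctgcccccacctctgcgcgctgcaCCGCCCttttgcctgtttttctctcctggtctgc
Eif4a1 (chr11:69672424-69672523, minus strand): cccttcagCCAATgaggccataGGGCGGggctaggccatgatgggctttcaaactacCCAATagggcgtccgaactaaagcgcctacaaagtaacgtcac
Eif4a2 (chr16:23107368-23107467, plus strand): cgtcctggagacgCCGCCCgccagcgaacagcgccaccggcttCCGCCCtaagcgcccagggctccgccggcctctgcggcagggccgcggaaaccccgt
All 4 windows held a GC box, and only that of Eif4a1 held CCAAT boxes, 2 of them. Searched on both strands, the GC box was in 23 of the 40 member promoters (57.5%) and in 25.2% of 27025 promoters, and CCAAT in 7 (17.5%) and in 19.6%. The element TGATGNAAT, which ATF4 dimers can bind, was in none of the 40 within 250 bases of the start and in 0.825% of all promoters. Here too the 27025 promoters were not limited to tested genes as the 40 were. These counts describe letters in a window and say nothing of which factors bind there.

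**Figure D3:**
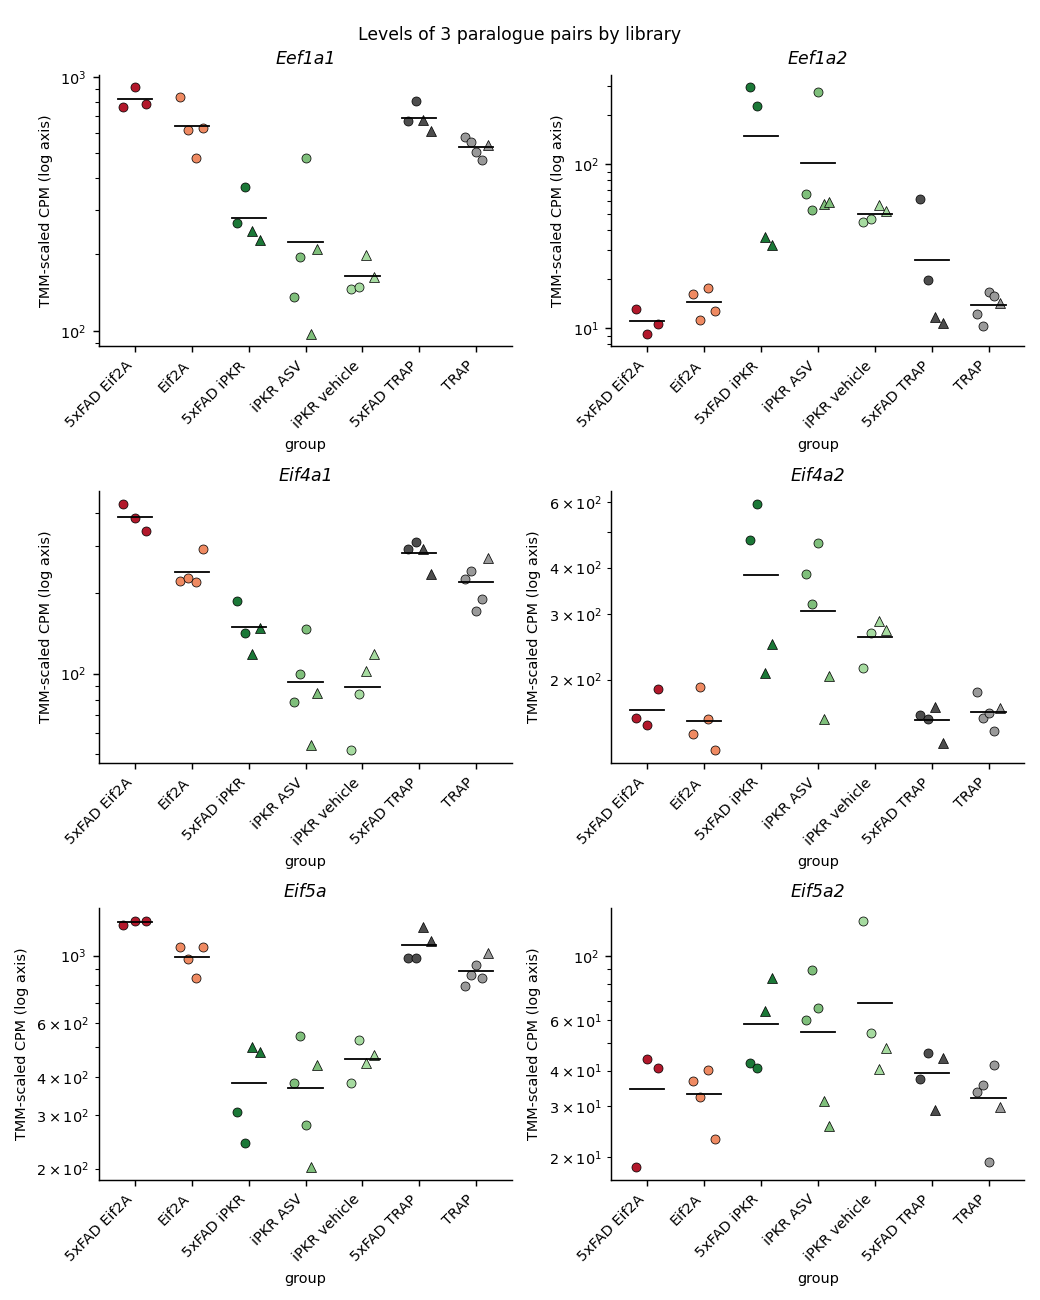
TMM-scaled CPM (log axis) of Eef1a1, Eef1a2, Eif4a1, Eif4a2, Eif5a and Eif5a2 in every library by group, with circles for batch 1, triangles for batch 2 and a line at the group mean. Eef1a1, Eif4a1 and Eif5a average lower in the 3 iPKR groups than in 5xFAD TRAP and TRAP libraries; Eef1a2 averaged 148.5 CPM in 5xFAD iPKR and 49.9 CPM in iPKR vehicle, against 26.0 CPM in 5xFAD TRAP and 13.8 CPM in TRAP libraries.

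The other cap-binding factors mostly fell or were not called. Eif4g2 (chr7:111067750-111083030), the scaffold for cap-independent initiation, measured 579.5, 378, 776 and 921 CPM in 5xFAD iPKR libraries, against 1636, 1676, 1622 and 1543 CPM in 5xFAD TRAP libraries. The iPKR vehicle libraries measured 1294, 1153, 491 and 813 CPM, against 2433, 2480, 2179, 2201 and 1755 CPM in TRAP libraries. The groups were apart in both pairs, with differences of -1.26 ± 0.28 (edgeR adjusted p = 0.000636) and -1.19 ± 0.26 (adjusted p = 0.000397). Without the 3 libraries richest in neuronal markers the 5xFAD pair gave -0.71, still called (adjusted p = 0.0153). Eif4b, which helps eIF4A unwind leaders, fell by 1.20 ± 0.24 and 0.91 ± 0.23 on the log2 scale in 5xFAD iPKR and iPKR vehicle libraries. Eif4e itself averaged 132 ± 5.42 CPM in 5xFAD iPKR and 184 ± 22.4 CPM in 5xFAD TRAP libraries, a difference of -0.57 ± 0.22 whose call (edgeR adjusted p = 0.0318) was lost without any of 5xFAD TRAP replicates 3 and 4 and 5xFAD iPKR replicates 1 and 4 (up to 0.142). Eif4e in iPKR vehicle libraries was at -0.44 ± 0.20 and not called (adjusted p = 0.0678), but it was called by DESeq2 (0.0372) and without sex (0.0413) or batch (0.0405) in the model. The main scaffold Eif4g1 was not called in either, at -0.14 ± 0.21 and 0.30 ± 0.19, although the RPKM table gave 0.61 with a call in iPKR vehicle libraries (adjusted p = 0.00901). Its paralogue Eif4g3 rose in iPKR vehicle libraries by 0.73 ± 0.24 (adjusted p = 0.0138), a call lost without TRAP replicate 1 or iPKR vehicle replicate 2 or 3 (up to 0.115), and it was not called in 5xFAD iPKR libraries (0.40 ± 0.26).

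Of the 13 tested subunit genes of eIF3, the largest initiation factor, 6 fell in 5xFAD iPKR and 11 in iPKR vehicle libraries, with none higher, where 23% and 25.4% of all genes were called lower. Eif3g (chr9:20894349-20898623, minus strand), an RNA-binding subunit, measured 78.1, 91.7, 89.4 and 87.4 CPM in 5xFAD iPKR libraries, against 196, 177.5, 215.5 and 202 CPM in 5xFAD TRAP libraries. It measured 37.1, 50.9, 74.0 and 57.2 CPM in iPKR vehicle libraries, against 169, 189, 214, 201 and 210.4 CPM in TRAP libraries. All iPKR libraries were below all of their counterparts, with differences of -1.29 ± 0.19 (edgeR adjusted p = 6.16e-06) and -1.82 ± 0.19 (adjusted p = 1.23e-08). The core subunit Eif3b fell by 0.96 ± 0.16 and 0.93 ± 0.15, and Eif3f by 0.88 ± 0.24 and 1.03 ± 0.23. Eif3j1, the loosely bound subunit, fell by 1.36 ± 0.27 and 1.61 ± 0.25, but it has a near-identical copy, Eif3j2, and shares 1107 bases of exon with Spg11. The core subunit Eif3a was not called, at -0.56 ± 0.27 in 5xFAD iPKR (adjusted p = 0.0865) and -0.28 ± 0.25 in iPKR vehicle libraries. Without the 3 libraries richest in neuronal markers the 5xFAD pair gave -1.17 for Eif3a, with a call (adjusted p = 0.00142). Of the 11 calls in the vehicle pair, those of Eif3c, Eif3d, Eif3k and Eif3l were lost without iPKR vehicle replicate 1, with adjusted p of 0.274, 0.103, 0.0646 and 0.213. Over the 9 fits that each left out 1 library, Eif3c was lost in 7, Eif3l in 5, Eif3d in 2 and Eif3k in 1. The calls of Eif3k and Eif3h in the 5xFAD pair were lost in 6 and 2 of the 8 fits that each left out 1 of its libraries (up to 0.0921 and 0.0702). Neither gene was called in that pair within batch 1 or batch 2 alone, with RLE size factors or on RPKM.

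The ternary complex and eIF2B carry the step that eIF2α phosphorylation controls. Eif2s3x, the γ subunit of eIF2, averaged 20.7 ± 6.83 CPM in 5xFAD iPKR and 18.4 ± 5.53 CPM in 5xFAD TRAP libraries, and 15.8 ± 5.89 CPM in iPKR vehicle and 16.7 ± 3.53 CPM in TRAP libraries, with no call. Eif2s1, the α subunit and the gene the study's Eif2A line targets, is no member of the set. It averaged 99.8 ± 34.4 CPM in 5xFAD iPKR and 162 ± 22.0 CPM in 5xFAD TRAP libraries, and 52.7 ± 8.15 CPM in iPKR vehicle and 129 ± 8.68 CPM in TRAP libraries. It was called lower in both pairs, with adjusted p of 0.00475 and 0.00035.

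Of the 5 eIF2B subunit genes, 2 fell in 5xFAD iPKR and 1 in iPKR vehicle libraries, and these were different genes. With 23% and 25.4% of all genes called lower, counts this small do not set eIF2B apart from genes at large. Eif2b4 (chr5:31187558-31193430), the δ subunit, measured 52.7, 56.2, 52.5 and 37.5 CPM in 5xFAD iPKR libraries, against 84.4, 77.3, 84.5 and 74.7 CPM in 5xFAD TRAP libraries. It was lower by 0.79 ± 0.25 on the log2 scale (edgeR adjusted p = 0.0119), and in iPKR vehicle libraries it was at -0.36 ± 0.24 with no call. Eif2b1, the α subunit at the core of the complex, fell by 0.61 ± 0.22 in 5xFAD iPKR libraries (adjusted p = 0.0251), a call lost without 5xFAD TRAP replicate 2 or 3 or 5xFAD iPKR replicate 4 (up to 0.112), and stood at -0.34 ± 0.21 in iPKR vehicle libraries. Eif2b2 (chr12:85219481-85226628), the β subunit, measured 14.5, 26.1, 24.6 and 30.0 CPM in iPKR vehicle libraries, against 42.9, 47.8, 45.9, 41.0 and 45 CPM in TRAP libraries. All vehicle libraries were below all TRAP libraries (-0.76 ± 0.22; adjusted p = 0.0055), while the 5xFAD pair overlapped, with 42.7, 47.9, 42.9 and 35.1 CPM in 5xFAD iPKR against 59.7, 44.4, 44.0 and 41.6 CPM in 5xFAD TRAP libraries (-0.33 ± 0.24). The catalytic subunit Eif2b5 and the γ subunit Eif2b3 were not called in either. Within batch 1 or batch 2 alone neither Eif2b4 (edgeR adjusted p = 0.150 and 0.0594) nor Eif2b1 (0.214 and 0.197) was called in the 5xFAD pair, and neither was on RPKM. Whether the eIF2B genes differed between the pairs was not tested. Eif2b4 shares 204 bases of exon with Snx17.

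**Figure D4:**
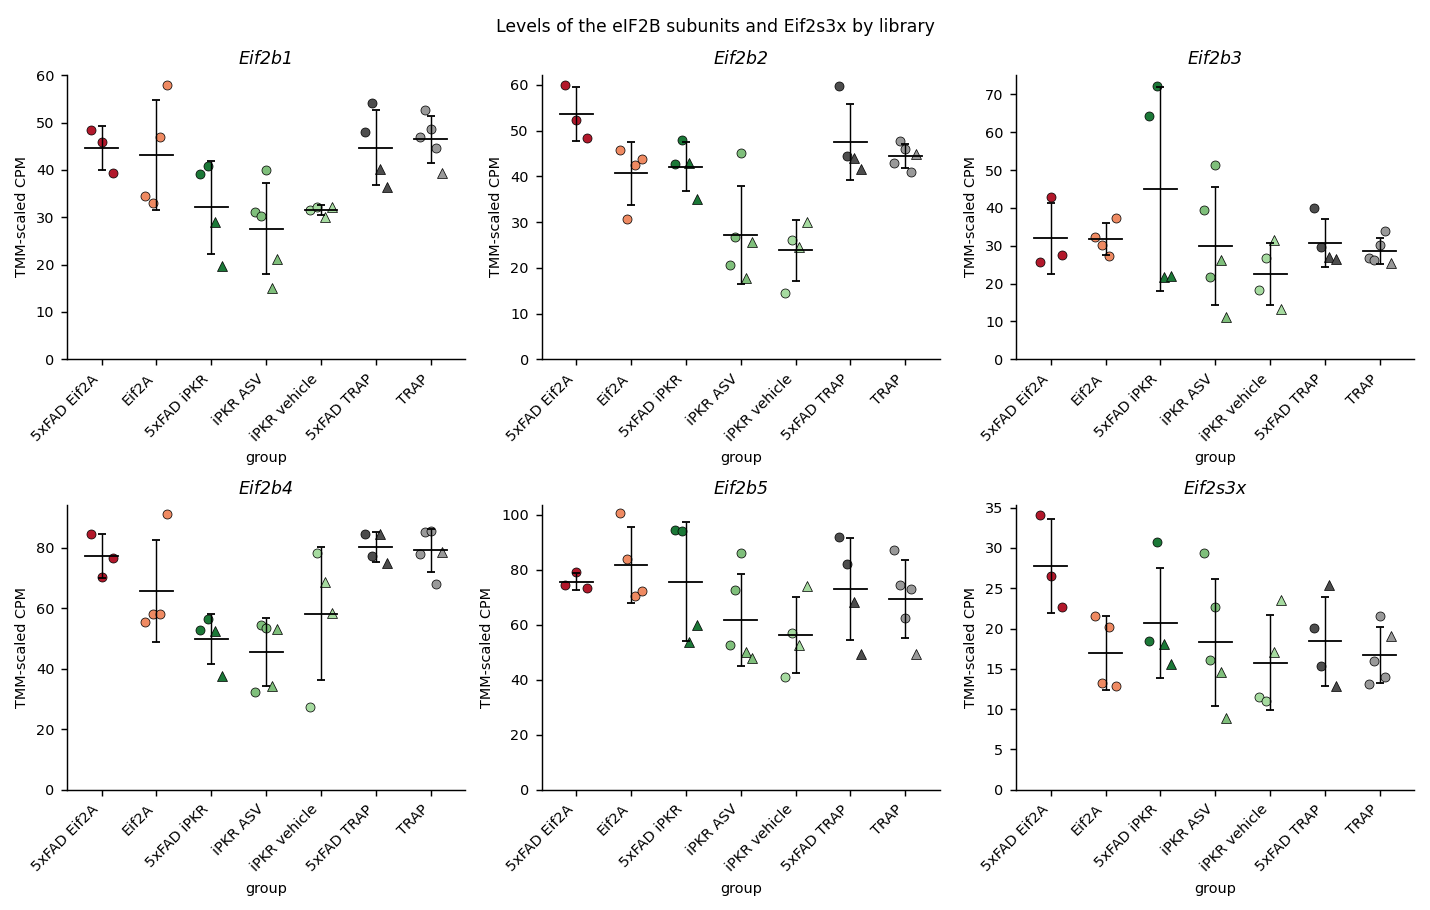
TMM-scaled CPM of the 5 eIF2B subunit genes and of Eif2s3x in every library by group (circles batch 1, triangles batch 2), with the group mean and SD. Eif2b3 was spread widely in 5xFAD iPKR, from 21.7 to 72.2 CPM, and Eif2b2 ran from 14.5 to 30.0 CPM in iPKR vehicle, below the TRAP libraries at 41.0 to 47.8 CPM.

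Eif2d, which can deliver initiator tRNA without eIF2, measured 14.5, 21.3, 24.2 and 17.4 CPM in 5xFAD iPKR libraries, against 48.4, 52.1, 42.7 and 45.8 CPM in 5xFAD TRAP libraries. The groups were far apart (-1.18 ± 0.24; edgeR adjusted p = 0.000191), while iPKR vehicle libraries at 28.2, 25.6, 28.8 and 28.6 CPM overlapped TRAP libraries at 36.8, 32.7, 41.3, 45.3 and 25.6 CPM (-0.41 ± 0.22, not called). Within batch 1 the vehicle pair was called at -0.64 (adjusted p = 0.0467), and within batch 2 the 5xFAD pair was at -0.99 without a call (adjusted p = 0.130). Eif2a, another alternative carrier, was not called in either comparison. It shares 72 bases of exon with Serp1, and Eif2d shares 78 with Rassf5.

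Start codon selection was represented by 5 genes, of which 3 fell in 5xFAD iPKR (Eif1, Eif1a and Eif1b) and 2 in iPKR vehicle libraries (Eif1 and Eif1b). With 23% and 25.4% of all genes called lower in these comparisons, counts this small do not set the class apart from genes at large. Eif1 measured 177, 139.7, 543 and 585 CPM in 5xFAD iPKR libraries, against 521, 554.5, 853.5 and 834 CPM in 5xFAD TRAP libraries. Batch 1 was below batch 2 in both groups, the groups overlapped when batches were pooled, and the difference was -1.10 ± 0.29 (edgeR adjusted p = 0.0025). It was -1.77 within batch 1, -0.81 within batch 2 without a call (adjusted p = 0.0822), and -0.55 without a call when the 3 libraries richest in neuronal markers were left out (adjusted p = 0.0518). In iPKR vehicle libraries Eif1 measured 276, 385, 528 and 566 CPM, against 647, 636, 672, 671 and 789 CPM in TRAP libraries, with a difference of -0.90 ± 0.27 (adjusted p = 0.00617). Eif1b fell in iPKR vehicle libraries by 0.71 ± 0.25, a call lost without iPKR vehicle replicate 1 (adjusted p = 0.101), and in 5xFAD iPKR libraries by 0.89 ± 0.26. Eif1a fell in 5xFAD iPKR libraries by 0.86 ± 0.25. Without the 3 libraries richest in neuronal markers neither Eif1b (adjusted p = 0.103) nor Eif1a (0.198) was called in the 5xFAD pair. Without batch in the model neither Eif1 (0.109) nor Eif1b (0.0713) was called in the vehicle pair. Eif5, whose product triggers GTP hydrolysis on eIF2, was not called, at -0.37 ± 0.19 in 5xFAD iPKR and -0.22 ± 0.18 in iPKR vehicle libraries.

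Among the late factors, Eif5a (chr11:69916714-69921958) measured 306, 243, 500.2 and 482 CPM in 5xFAD iPKR libraries, against 985, 985, 1239 and 1117 CPM in 5xFAD TRAP libraries. The iPKR vehicle libraries measured 383, 528, 443 and 472 CPM, against 793, 861, 932, 844 and 1021 CPM in TRAP libraries. The groups were apart in both, with differences of -1.59 ± 0.25 (edgeR adjusted p = 1.39e-05) and -0.97 ± 0.24 (adjusted p = 0.0012). Its paralogue Eif5a2 measured 133, 54.1, 40.4 and 48.0 CPM in iPKR vehicle libraries, against 33.6, 35.7, 19.3, 41.9 and 29.8 CPM in TRAP libraries. That rise of 1.09 ± 0.34 (adjusted p = 0.00831) rested on iPKR vehicle replicate 1, without which it was not called (adjusted p = 0.134). In 5xFAD iPKR libraries Eif5a2 was at 0.84 ± 0.38 with no call (adjusted p = 0.0702), while RLE size factors (0.0476), DESeq2 (0.0354) and the RPKM table (1.03; 0.0305) gave a call. It was at 1.52 with a call when the 3 libraries richest in neuronal markers were left out (adjusted p = 0.00261). Eif6, which keeps large ribosomal subunits from joining too early, fell by 0.77 ± 0.24 in 5xFAD iPKR and by 0.68 ± 0.22 in iPKR vehicle libraries. The first call was lost within batch 1 (adjusted p = 0.0562) and batch 2 (0.0614), with only the groups compared (0.0570) and on RPKM (0.140), and the second without iPKR vehicle replicate 1 (0.0757) and on RPKM (0.128). Eif4a3, a helicase of the exon junction complex rather than of initiation, fell by 1.00 ± 0.23 and 1.44 ± 0.23.

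The TOP mRNAs are known as a group whose translation mTOR controls. The list used here was set from prior knowledge and not from the sequence search above. That search covered 40 of the tested members, and of the list it found a pyrimidine run only for Eef1a1, Eef1a2, Eef2 and Eif3f. Of the 9 listed members (Eef1a1, Eef1a2, Eef1b2, Eef1d, Eef1g, Eef2, Eif3e, Eif3f and Eif3h), 5 fell and 1 rose in 5xFAD iPKR libraries and 7 fell and 1 rose in iPKR vehicle libraries, Eef1a2 being the gene that rose in both. The ribosomal proteins, the classical TOP mRNAs, fell as well: 72 of 76 tested in 5xFAD iPKR (median -1.76) and 69 of 76 in iPKR vehicle libraries (median -1.65). Other genes of the pathway were more mixed, with 4 of 40 tested higher and 12 lower in 5xFAD iPKR and 8 higher and 13 lower in iPKR vehicle libraries, against 23% and 25.4% of all genes called lower and 25% and 28.6% called higher. Mknk1, the kinase that phosphorylates eIF4E, averaged 58.6 ± 17.9 CPM in 5xFAD iPKR and 253 ± 57.3 CPM in 5xFAD TRAP libraries, and 26.5 ± 7.0 CPM in iPKR vehicle and 260.4 ± 34.4 CPM in TRAP libraries. Its differences were -2.15 ± 0.24 and -3.20 ± 0.23, with edgeR adjusted p of 1.81e-07 and 6.41e-11. The release factor Gspt1 fell by 0.82 ± 0.21 and 1.69 ± 0.20, while its paralogue Gspt2 rose by 2.84 ± 0.76 and 3.99 ± 0.75 on the log2 scale, at 28.4 ± 22.1 and 19.2 ± 11.1 CPM in 5xFAD iPKR and iPKR vehicle against 3.46 ± 1.90 and 2.03 ± 1.82 CPM in 5xFAD TRAP and TRAP libraries. Mtor rose by 1.25 ± 0.35 and 1.79 ± 0.32, and Rptor, which directs mTOR to its substrates, fell by 0.89 ± 0.25 and 1.5 ± 0.24. Without the 3 libraries richest in neuronal markers neither Gspt2 (adjusted p = 0.128) nor Mtor was called in the 5xFAD pair. Gspt1 and Mtor were not called within its batch 2, nor was Rptor within its batch 1.

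The number of calls depended in part on the table and the batch. On the RPKM table, tested with limma-trend on log2(RPKM + 0.01), 6 members were higher and 20 lower in each of these comparisons. Of all genes, 48% were called there in 5xFAD iPKR and 53.9% in iPKR vehicle libraries, so the members were not called more often than genes at large. The median of all genes was 0.41 in 5xFAD iPKR and 0.34 in iPKR vehicle libraries, against -0.30 and -0.43 for the members. Within batch 2 alone 18 members fell and 1 rose in 5xFAD iPKR against 5xFAD TRAP libraries, where 23.4% of all genes were called. Without the 3 libraries richest in neuronal markers 28 members fell and 3 rose there, where 37.6% of all genes were called, and 25 of the 31 called members remained called. The shares of all genes in this paragraph cover both directions, and separate shares for lower and higher calls are not given.

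ASV itself was compared within the iPKR line. Of the 54 members, 0 were called in iPKR ASV against iPKR vehicle libraries by edgeR's quasi-likelihood test and 0 by DESeq2, and 2 had an unadjusted p under 0.05. Of all genes, 0.423% were called, 0.317% as higher and 0.106% as lower. The members' median log2 difference was 0.02, with 29 positive and 25 negative. Eef1a2 measured 66.2, 52.8, 275, 57.6 and 59.2 CPM in iPKR ASV libraries, against 44.4, 46.4, 56.8 and 51.9 CPM in iPKR vehicle libraries, and a single library, ASV replicate 3, stood far above the rest (0.50, adjusted p = 0.631). That library also had the lowest microglial share, 0.0843%, and a neuronal share of 2.49%. Eif1 measured 312, 328, 158, 233 and 424 CPM in iPKR ASV libraries, against 276, 385, 528 and 566 CPM in iPKR vehicle libraries, overlapping (-0.47, adjusted p = 0.356). Eif5a and Eif4g2 gave -0.31 and -0.42, also without a call. Only Eif3b had every ASV library below every vehicle library (1.85% of members; 2.39% of all genes), and no member had the reverse (1.05% of all genes). Within batch 1 alone Eif3c was called, at 1.51 (edgeR adjusted p = 0.0156). The ASV libraries were spread widely, Eef1a1 running from 97.6 to 481 CPM in them, against 147 to 199.9 CPM in vehicle libraries.

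The Eif2A genotype was compared with the plain tag in Eif2A against TRAP libraries, where no member and none of the 16074 genes (0%) was called by edgeR. DESeq2 called 0 members and 2 members had an unadjusted p under 0.05. The median log2 difference of the members was 0.04, with 30 of 54 positive. Eif2d did not overlap, with 53.5, 53.5, 50.1 and 63.5 CPM in Eif2A libraries, all above the TRAP libraries at 36.8, 32.7, 41.3, 45.3 and 25.6 CPM (0.63 ± 0.21, edgeR adjusted p = 0.866). Eef1e1 and Eef1akmt1 were the other 2 members without overlap (5.56% of members; 2.86% of all genes), and both were called when the iPKR groups were left out of the fit, at 0.46 (adjusted p = 0.0423) and 0.49 (adjusted p = 0.0401), where 1.97% of all genes were called. No member had every Eif2A library below every TRAP library (1.04% of all genes). The eIF2B genes, whose product phosphorylated eIF2α would inhibit, gave differences from -0.32 for Eif2b4 and -0.24 for Eif2b1 to 0.14 for Eif2b5, none called. Of the 76 ribosomal proteins, 75 were positive, with a median of 0.70 and 0 calls. The Eif2A libraries were all of batch 1, as were 4 of the 5 TRAP libraries.

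In 5xFAD Eif2A against 5xFAD TRAP libraries no member was called by edgeR or DESeq2, 6 had an unadjusted p under 0.05, and 0.168% of all genes were called, 0.0435% as higher and 0.124% as lower. Every 5xFAD Eif2A library was above every 5xFAD TRAP library for 16 members (29.6%; 7.97% of all genes), and the reverse held for 0 (5.02% of all genes). Among the 16 were Eif1, with 916, 871 and 877 CPM in 5xFAD Eif2A against 521, 554.5, 853.5 and 834 CPM in 5xFAD TRAP libraries (0.76, adjusted p = 0.359), and Eef1g, with 130, 161 and 149.7 CPM in 5xFAD Eif2A against 95.5, 98.6, 126 and 121 CPM in 5xFAD TRAP libraries (0.56). Eef1a2 had the largest difference, -1.73 ± 0.57 (adjusted p = 0.263), at 13.1, 9.30 and 10.7 CPM in 5xFAD Eif2A and 61.7, 19.7, 11.7 and 10.7 CPM in 5xFAD TRAP libraries. Without the high 5xFAD TRAP library, replicate 1, the difference was -1.05. That library also had the group's highest neuronal share, 0.431%, and 11 of 11 neuronal markers were negative in the same comparison (median -1.46, 1 called). All 76 ribosomal proteins were positive (median 0.91, 2 called). When the model was fitted to these 2 groups alone, 3 members rose (Eif1, Eif3j1 and Eef1g) and Eef1a2 fell, where 9.06% of all genes were called. The 5xFAD Eif2A mice had no VEGF or ASV and came from batch 1 alone, so genotype and treatment cannot be told apart.

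The 5xFAD transgenes were compared with their own controls in 3 backgrounds, and no member was called by edgeR in any of them. In 5xFAD TRAP against TRAP libraries, 41 of 54 members were positive, with a median of 0.15 against -0.06 over all genes, 3 had an unadjusted p under 0.05, DESeq2 called 0 and edgeR called 0.79% of all genes, 0.709% as higher and 0.0809% as lower. Eef1a1, given above, had every 5xFAD TRAP library above every TRAP library (0.54 ± 0.27, edgeR adjusted p = 0.501). Such separation held for 2 members upward (3.7%; 3.4% of all genes) and 1 downward (1.85%; 1.95% of all genes). Eef1a2 had the largest difference of the set, 1.13 ± 0.48 (adjusted p = 0.393), at 61.7, 19.7, 11.7 and 10.7 CPM in 5xFAD TRAP libraries and 12.3, 10.3, 16.8, 15.7 and 14.2 CPM in TRAP libraries, with overlap. Without 5xFAD TRAP replicate 1 it was 0.50. Neuronal markers were positive for 9 of 11 in the same comparison (median 0.81). Eif4g1 gave 0.54 ± 0.19 (adjusted p = 0.266), Eif1a 0.49 and Eif4a1 0.46, and Eef2 and the eIF2B genes Eif2b2, Eif2b3 and Eif2b5 gave 0.22 to 0.28. The 5xFAD TRAP mice had VEGF and ASV and the TRAP mice had neither.

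The 5xFAD Eif2A and Eif2A libraries, compared next, were both of batch 1 and of mice given tamoxifen only. In that comparison 38 members were positive with a median of 0.14 (all genes -0.06). Of the members 7 had an unadjusted p under 0.05, and edgeR called 3.1% of all genes, 2.08% as higher and 1.03% as lower. Every 5xFAD Eif2A library was above every Eif2A library for 13 members (24.1%; 11.5% of all genes) and below for 4 (7.41%; 9.64% of all genes). Eif4a1 measured 432, 381 and 341 CPM in 5xFAD Eif2A libraries, against 222, 228, 219 and 292 CPM in Eif2A libraries (0.73 ± 0.25, edgeR adjusted p = 0.115). Eif5a was higher throughout as well, at 1262, 1298 and 1302 CPM in 5xFAD Eif2A against 1068, 973, 845 and 1065 CPM in Eif2A libraries (0.41). So was Eif2s3x, at 34.1, 26.5 and 22.6 CPM in 5xFAD Eif2A against 21.6, 13.2, 20.2 and 12.8 CPM in Eif2A libraries (0.73, adjusted p = 0.345). Eif4g2 lay lower throughout, at 1324, 1671 and 1585 CPM in 5xFAD Eif2A against 2249, 2193, 2052 and 1939 CPM in Eif2A libraries (-0.46).

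Some of these differences passed the threshold once the iPKR libraries were left out of the fit. With the model fitted to 5xFAD Eif2A and Eif2A libraries alone, 9 members were called, 7 higher and 2 lower, where 12.9% of all genes were called. With the 4 groups that lack iPKR, 13 were called, 11 higher and 2 lower, where 15.1% of all genes were called. Eif4a1 (0.69, adjusted p = 0.00268), Eif1a, Eif5a, Eif4b, Eef1d, Eif3j1 and Eif4a-ps4 were the higher genes of the first of these fits and Eif4g2 (-0.51, adjusted p = 0.00953) and Eif1b the lower ones. DESeq2 called 1 member over all groups, Eif1a (0.72, adjusted p = 0.0383), and 6.43% of all genes.

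In 5xFAD iPKR against iPKR ASV libraries, both given VEGF and ASV, 40 members were positive with a median of 0.18 (all genes 0.00), 3 had an unadjusted p under 0.05, and 1.72% of all genes were called, 1.54% as higher and 0.18% as lower. Every 5xFAD iPKR library was above every iPKR ASV library for 1 member (1.85%; 1.54% of all genes), with 0 the other way (0.915% of all genes). DESeq2 called 1 member, Eif3b (0.38, adjusted p = 0.0436), and 4.19% of all genes. Eif4a1 measured 187.5, 142, 118 and 148 CPM in 5xFAD iPKR libraries, against 78.0, 99.8, 147, 53.9 and 84.3 CPM in iPKR ASV libraries (0.62, edgeR adjusted p = 0.179). Eif2b2, at 42.7, 47.9, 42.9 and 35.1 CPM in 5xFAD iPKR against 20.6, 26.8, 45.1, 17.8 and 25.6 CPM in iPKR ASV libraries, was above all but 1 ASV library (0.59, adjusted p = 0.188), and without that library, ASV replicate 3, it was called (0.79). In the same comparison all 16 microglial markers were positive and 5 were called (median 1.23). Among the other pathway genes Mknk1 rose (0.89 ± 0.22, adjusted p = 0.0294), a call that 12 of 20 alternatives did not make.

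**Figure D5:**
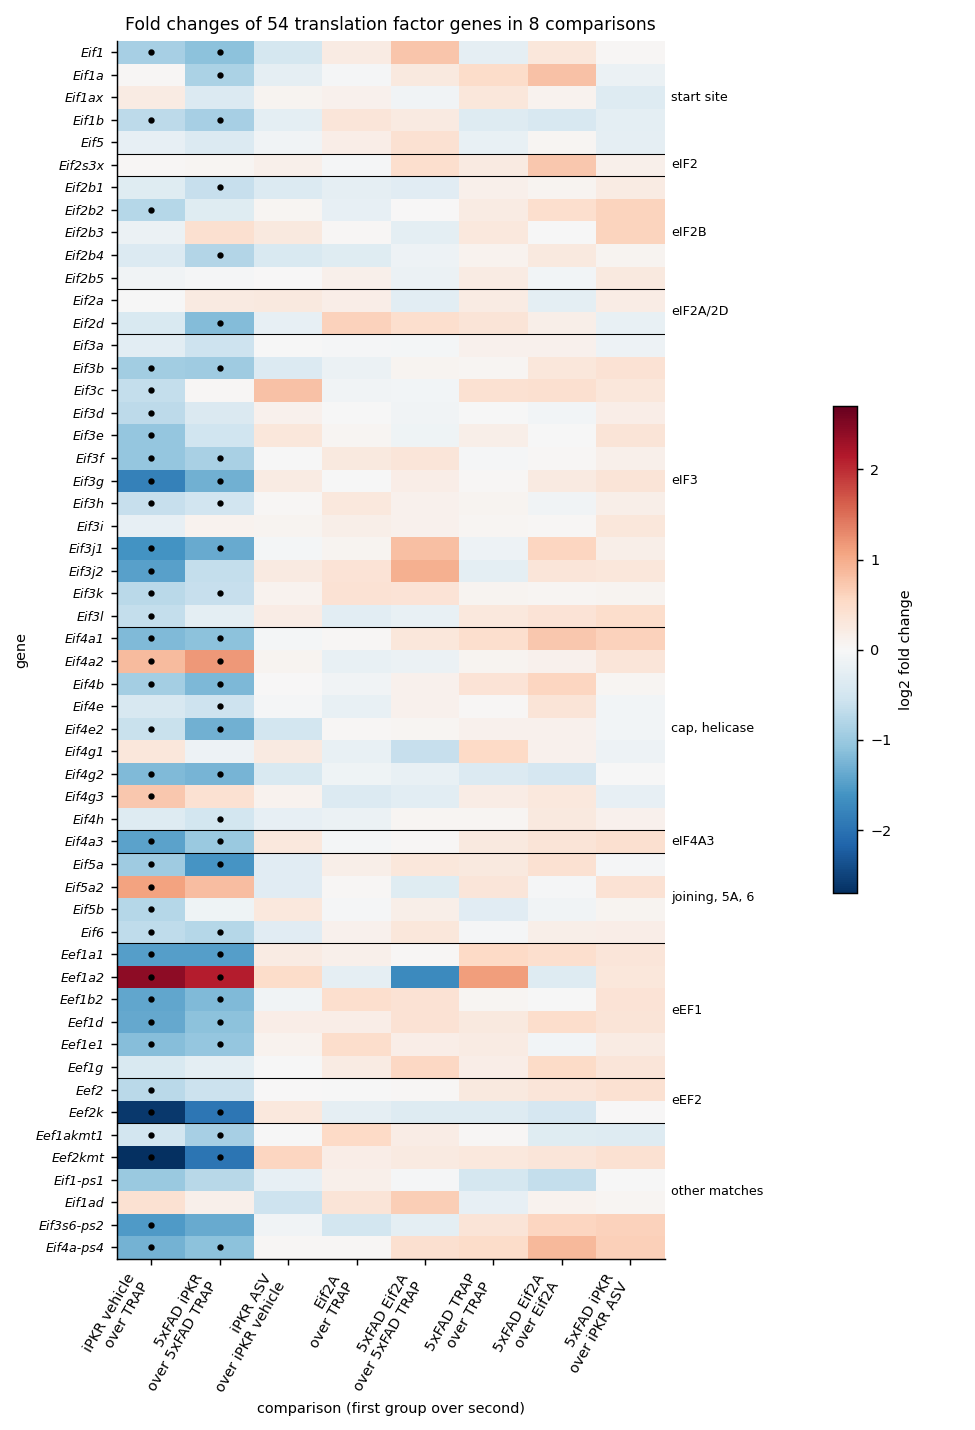
Log2 fold change of the 54 tested members (rows, grouped by role) in the 8 pairwise comparisons (columns), with black dots where the adjusted p was at most 0.05. All dots lie in the 2 columns that compare iPKR with non-iPKR groups, 36 for iPKR vehicle against TRAP and 31 for 5xFAD iPKR against 5xFAD TRAP.

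Whether the 5xFAD difference itself changed with the background was tested as a difference of differences. No member was called by edgeR or DESeq2 for Eif2A minus TRAP, where 1 member had an unadjusted p under 0.05 and 0.00622% of all genes were called. None was called for iPKR ASV minus TRAP either, where 2 members had an unadjusted p under 0.05 and 0.0373% of all genes were called, 0.00622% as higher and 0.0311% as lower. Eef1a2 gave -1.48 in the first and -0.82 in the second, Eif1 gave 0.54 in the first, and Eif4g1 gave -0.68 in the second (edgeR adjusted p = 0.64). Both tests use the same 5xFAD TRAP and TRAP libraries.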

How the data were processed

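RNA on tagged ribosomes was sequenced from 29 mouse cortices in 7 groups. The submitters' processing notes name featureCounts 2.0.3, HISAT2 2.2.1, Trim Galore and the build mm10; the annotation, strandedness and treatment of reads with several matches are not given in the sources used here. The authors deposited raw counts per gene symbol and, in a second table, RPKM, which are counts scaled to the library total and a length per gene.

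Counts were analysed in R 4.3.3 with edgeR 4.0.16: filterByExpr (minimum count 10, minimum total 15), TMM factors, and 1 quasi-likelihood model of group, batch and labelled sex over all libraries (20 residual degrees of freedom). Tests were two-sided, adjusted by Benjamini-Hochberg over 16074 genes, with a threshold of 0.05, for 8 pairwise comparisons and 2 differences of differences. All adjusted p in the text come from this model unless another tool or subset is named. Levels between genes are TMM-scaled CPM per kilobase of merged exon (GENCODE M21, mm10), a length that adds all isoforms.

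The procedure was tested on simulated data. Each library is 1 mouse, and no 2 libraries of a group agreed within counting noise (lowest chi-square per degree of freedom 4.22). Same-numbered 5xFAD iPKR and 5xFAD TRAP libraries deviated together (r from 0.135 to 0.246 over 4 pairs). They also shared a batch, which was not removed from these deviations, so the correlation does not show that the mice were paired. The main model did not pair them. With the replicate block as an alternative, 31 members were called there, as without it, and 45.2% of all genes.

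Alternatives were RLE size factors, no filter on low counts, models without sex or batch, batch 1 alone, the compared groups alone, the 4 groups without iPKR, DESeq2 1.42.0, limma-trend 3.58.1 on log2(RPKM + 0.01), and each library left out in turn. Batch 2 alone and the fit without the 3 libraries richest in neuronal markers were chosen after seeing the data. The members and gene lists were chosen with earlier results of these data known. Values are given for up to 6 called members per direction with the smallest p and for 25 preset members; others named from the role lists were chosen after their values were seen. Promoter and start sequences are from RefSeq (GRCm38.p6), matched by symbol. The start sequence of 1 further member is not reported here.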

Additional observations from a re-analysis of the deposited data

Results flagged for a closer look

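In 156 tests of 1 library against the rest of its group, for the 25 preset members and the set's share of counts in groups of 4 or 5, 9 values stood farther from the others than Dixon's 95% limit allows. Chance gives about 1 in 20 such groups. In iPKR ASV replicate 3, the library with the lowest share of microglial markers and a neuronal share of 2.49%, Eef1a2 was at 275.4 CPM (others 52.84 to 66.16) and Eif2a at 67.16 CPM (27.83 to 36.96); the part of the other cell types was not tested. In Eif2A replicate 4, Eif4a1 was at 291.7 CPM (219.2 to 228.4) and Eif2b4 at 90.95 CPM (55.46 to 58.09). In Eif2A replicate 3, Eif4e was lowest at 151.7 CPM (185.3 to 190.9) and Eif6 at 106.4 CPM (126.9 to 130.5). Eif4e was at 217.3 CPM in 5xFAD TRAP replicate 3 (170.4 to 174.5), and Eif2b2 at 59.74 CPM in 5xFAD TRAP replicate 1 (41.57 to 44.38). Eif1 was at 789.1 CPM in TRAP replicate 5, the group's only batch 2 library (635.7 to 672.3).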

How the results depend on the processing

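Under the alternatives run, no named member changed sign past a threshold. With the 4 groups without iPKR alone, 13 members (15.1% of all genes) were called in 5xFAD Eif2A against Eif2A, 5 (4.25%) in 5xFAD Eif2A against 5xFAD TRAP, 2 (1.97%) in Eif2A against TRAP and 1 (Eif4g2, -0.43; 6.94%) in 5xFAD TRAP against TRAP, where all 29 libraries gave 0. With only the compared groups, the first pair gave 9 (12.9%) and the second 4 (9.06%). DESeq2 called 1 member (Eif1a; 6.43% of all genes) in 5xFAD Eif2A against Eif2A and 1 (Eif3b; 4.19%) in 5xFAD iPKR against iPKR ASV; where it called 0 members it called 0.255% to 3.27% of all genes. Batch 1 alone gave 1 call (Eif1a, 0.75; 4.73%) in the first of these and 1 (Eif3c; 2.07%) in iPKR ASV against iPKR vehicle, and batch 2 alone gave 19 (23.4%) in 5xFAD iPKR against 5xFAD TRAP. These alternatives use fewer libraries or another estimate of spread. The fits to fewer libraries also redo the low-count filter, the TMM factors and the adjustment over genes. The cause of each change was not tested.

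With 1 library left out, calls ran from 25 to 37 in iPKR vehicle against TRAP (50.4% to 53.4% of all genes), lowest without iPKR vehicle replicate 1 (50.4%). They ran from 28 to 34 in 5xFAD iPKR against 5xFAD TRAP (42.7% to 46.5% of all genes). They ran from 0 to 1 in 5xFAD Eif2A against Eif2A (1 without Eif2A replicate 1, with 2.61% of all genes) and in 5xFAD iPKR against iPKR ASV (1 without iPKR ASV replicate 3, with 3.37%). The other comparisons stayed at 0. At least 1 such fit lost each of 13 of the 36 calls in the vehicle pair and of 4 of the 31 in the 5xFAD pair. Calls that remained numbered 32 of 36 with batch 1 alone and 24 on RPKM in the vehicle pair, and 22 and 21 of 31 in the 5xFAD pair. The replicate block gave 28 calls in the vehicle pair (48% of all genes), whose numbers did not pair libraries (r from -0.0621 to 0.115). It gave 31 in the 5xFAD pair (45.2% of all genes) and 0 elsewhere.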
